A study of Mus musculus with 40 samples.

Results

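Early T-cell precursors (ETP) and DN3 thymocytes were compared with each other in mice whose Notch1 receptor had been blocked, gene by gene across the whole transcript table. The comparison takes the 3 ETP and the 3 DN3 libraries titled as treated with the anti-NRR antibody, 6 of the 40 libraries of the series. The mice were C57BL/6 and received 10 mg/kg of an anti-NRR antibody (AntiNRR), named for the negative regulatory region of Notch1 that it binds, by intraperitoneal injection, and cells were sorted 24 hours later. A control set of 3 ETP and 3 DN3 libraries came from mice given the isotype IgG by the same route, and gives the same stage difference without the block. Sex, age and the number of mice behind the antibody groups are not given in the sources used here, so p-values measure the spread between these libraries only. RNA came from 5000 to 20000 sorted ETP or 100000 to 400000 sorted DN3 cells, and every library was made from 10 ng of RNA with 16 cycles of PCR, so stage and number of sorted cells cannot be told apart.

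T cells are made in the thymus from progenitors that arrive from the bone marrow. Ligands on the thymic epithelium engage Notch1 on these cells, proteases release the intracellular part of the receptor, and this fragment joins the DNA-binding protein Rbpj and a Mastermind co-activator in the nucleus to switch on target genes. ETP still carry Kit and CD44 and keep stem-cell and myeloid regulators, whereas DN3 cells have committed to the T lineage, express the pre-T-cell receptor and cut and join the antigen-receptor genes with the Rag enzymes. The antibody holds the Notch1 regulatory region closed, so that the receptor is not cleaved.

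The 2 stages could be told from their marker genes, with an exception in the written sort. The labels describe both gates as negative for lineage markers and CD25 and positive for CD44, with Kit added for ETP, whereas DN3 cells are usually defined as CD44-negative and CD25-positive. Cd44 RNA stood at 82.7, 175 and 74 CPM (read counts scaled to equal library size) in the ETP libraries. In the DN3 libraries it stood at 2.19, 2.8 and 3.88 CPM, so the RNA goes against the DN3 gate as written. Il2ra, the gene of CD25, had RNA in every ETP and DN3 library (values below), though both gates are written as CD25-negative. The ETP libraries also held RNA of Rag1, Cd3e and Bcl11b. RNA is not surface protein, and the purity of either gate was not tested. Of the DN3 markers, Rag1, Rag2, Notch3, Cd3e, Lck and Bcl11b were higher in DN3 than in ETP, Ptcra, Il2ra and Tcf7 did not pass the test, and Dntt was high in every library. Of the ETP markers, Kit, Cd44, Lyl1, Hhex, Mef2c and Sfpi1 (the gene of the factor PU.1) were higher in ETP, Flt3, Cd34 and Bcl11a did not pass, and Lmo2 was too low to test. Total counts ran from 13544135 to 16283070 in the ETP and from 11695668 to 18395358 in the DN3 libraries.

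Under Notch1 block, 1463 of 12586 genes tested differed between the stages at an adjusted p under 0.05 (edgeR's quasi-likelihood test, Benjamini-Hochberg adjustment), which is 11.6%. In DN3, 724 genes (5.75%) were higher and 739 genes (5.87%) were lower than in ETP, and these are the background shares against which each gene list below is read. The fold difference was at least 2 for 701 called genes (5.57%), of which 292 were higher and 409 lower in DN3, and it was at least 4 for 69 higher and 166 lower genes. DESeq2 called 920 higher and 995 lower (15.2%). Leaving out a single library moved the count between 549 genes, without DN3 replicate 2, and 1661 genes, without ETP replicate 1. It was 811 without DN3 replicate 1 and 893 without DN3 replicate 3.

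Transcript length moved with the stage difference. Genes were split into 5 groups of equal size by their longest annotated transcript, and the median log2 difference (DN3 minus ETP throughout) ran from -0.35 in the shortest group through -0.12 in the next to 0.07 and 0.22 in the longest groups. Of the shortest group, up to 1965 bases, 26 genes were called higher and 257 lower in DN3. Of the longest group, from 5212 bases, 395 were higher and 80 lower. The IgG libraries showed the same order, with medians of -0.28 in the shortest and 0.20 in the longest group. With a smooth trend on length removed from every library, an alternative chosen after seeing the data, 1032 genes were called, 451 of them higher and 581 lower in DN3, and 918 of the 1463 genes were called in the same direction. Removing the trend also removes any true difference that goes with length, and the part of length in the results was not tested.

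Slc5a9, a sodium-coupled sugar transporter (GRCm38 chr4:111875375-111902918, minus strand), had 0.221, 0 and 0 CPM in ETP and 54.8, 45.2 and 52.6 CPM in DN3, a ratio of 787 with a counting interval from 269 to 3817 (adjusted p = 1.82e-06). It was the lowest p of the comparison. The genes of largest difference given here were taken from called genes whose groups did not overlap. Gene models without an established name, small RNAs and receptor segments were left out. Fat4, an atypical cadherin, had 3.31, 1.63 and 1.95 CPM in ETP against 59.6, 51.4 and 43.7 CPM in DN3 (log2 4.49, SE 0.365, adjusted p = 7.22e-06). Scn4b, a sodium channel beta subunit, had 14, 2.16 and 5.33 CPM in ETP against 258, 286 and 257 CPM in DN3 (log2 5.23, SE 0.706, adjusted p = 0.0116). The other genes among the 12 largest on this side were Olfr1507, an olfactory receptor gene, Adamtsl2, Col15a1, Npas2, Syt13, Akap12, Flrt1, Grm4 and Rag1, with log2 differences from 3.67 to 6.25. The calls of Scn4b (adjusted p = 0.0513 without DN3 replicate 2 and 0.0691 without ETP replicate 3), Npas2 (0.0837 without DN3 replicate 2) and Adamtsl2 (0.0579 without ETP replicate 2) did not survive a left-out library. That of Syt13 was lost without DN3 replicate 1 or 2 or ETP replicate 2 (highest 0.116), and that of Grm4 without any 1 DN3 replicate or without ETP replicate 2 (highest 0.144) and with the length trend removed (0.0559).

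Among the 12 largest differences on the ETP side, 7 genes had no count in any DN3 library. Eltd1, an adhesion receptor, had 12.9, 78.1 and 19.5 CPM in ETP, at least 540-fold higher when 3 counts are taken as the limit over the DN3 group (adjusted p = 0.00474). Il18rap, a subunit of the interleukin 18 receptor, was at least 253-fold higher, Cd180, a Toll-like receptor homologue, at least 201-fold, Serpinf1 at least 171-fold and Ifitm1 at least 165-fold. Cdh17, a cadherin, had 2.94, 42.1 and 2.19 CPM, so ETP replicate 2 held most of its reads, and its adjusted p of 0.0394 rose to 0.105, 0.118 and 0.106 without DN3 replicate 1, 2 or 3 and to 0.0755 and 0.062 without ETP replicate 2 or 3, and was 0.0576 with the length trend removed. Chn2, a Rac-specific GTPase activator, had 1 count in DN3 and 991 in ETP, a ratio of 944 with a counting interval from 169 to 37327. Cd2, an adhesion and co-stimulation receptor of T and natural killer cells, had 32.8, 10.7 and 1.01 CPM in ETP against 0, 0 and 0.0761 CPM in DN3, a ratio of 597 with a counting interval from 107 to 23630. Within ETP it therefore spread widely, and groups without overlap were required of every gene in this set. Il2rb and Ccdc135 completed the set with log2 differences of -7.59 and -7.40, and Fam129b with 579 counts in ETP and 3 in DN3, a ratio of 184 with a counting interval from 62.6 to 894.

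**Figure D1:**
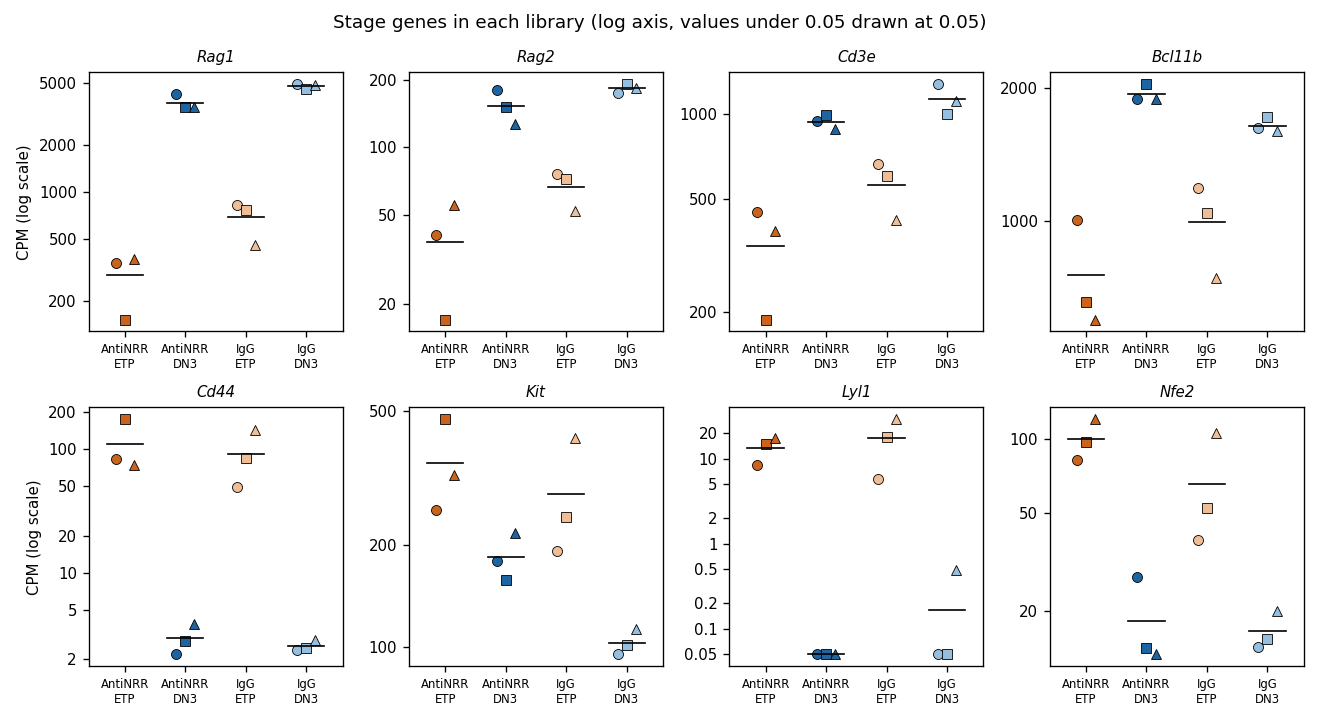
Level of 8 stage genes in each library, in CPM on a log axis with values under 0.05 drawn at 0.05. Columns are the AntiNRR and IgG groups, circles, squares and triangles are replicates 1, 2 and 3 and lines are group means. Rag1, Rag2, Cd3e and Bcl11b lie higher in the AntiNRR DN3 libraries than in the AntiNRR ETP libraries, and Cd44, Kit, Lyl1 and Nfe2 lie lower.

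Receptor genes of the Notch pathway kept a stage difference under the block. Notch1 itself (GRCm38 chr2:26457903-26516663, minus strand) had 923, 738 and 896 CPM in ETP and 1921, 2290 and 2038 CPM in DN3, a 2.44-fold difference (log2 1.29, SE 0.148, adjusted p = 9.28e-05). The antibody acts on the protein, so Notch1 RNA does not report the block directly. Notch3, a paralogous receptor that Notch1 signalling switches on in thymocytes, had 83.4, 45.5 and 122 CPM in ETP and 584, 692 and 526 CPM in DN3, a 7.17-fold difference (log2 2.84, SE 0.322, adjusted p = 0.000728). Every DN3 library lay above every ETP library for both receptors, and both calls held under every alternative tried, with log2 differences of 0.92 to 1.35 for Notch1 and 2.52 to 3.22 for Notch3. With IgG the differences were 0.94 and 2.14. Of the 18 genes for receptors, their processing and their modification, 4 were called (22.2%, against 11.6% of all genes), and the median log2 difference was -0.02, as over all genes.

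The other called genes of that list were Lfng and Mfng, glycosyltransferases that modify Notch for ligand binding. Lfng had 124, 81.2 and 113 CPM in ETP and 72, 59.8 and 53.8 CPM in DN3 (log2 -0.77, SE 0.203, adjusted p = 0.022), and Mfng differed by -0.85 (SE 0.266, adjusted p = 0.0497). Both calls were fragile. Lfng was lost with the length trend removed (adjusted p = 0.0599) and without DN3 replicate 2 or 3 or ETP replicate 1 or 3 (0.0561 to 0.103). Mfng was lost under 10 of 15 alternatives, including the length trend (0.166) and every left-out library but ETP replicate 2 (0.0897 to 0.175). Notch2, with 249, 298 and 164 CPM in ETP and 201, 196 and 232 CPM in DN3, and the protease gene Adam10 did not pass the test (log2 -0.18 and 0.12).

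Among 12 genes of the nuclear complex that reads the Notch signal, 6 were higher in DN3 and none was lower. This is 50%, against 5.75% of all genes that were higher. Their median log2 difference was 0.64, against -0.02 over all genes. Ncor1, a co-repressor that holds target genes silent with Rbpj, had 406, 352 and 263 CPM in ETP and 729, 817 and 703 CPM in DN3 (log2 1.14, SE 0.17, adjusted p = 0.000627). Spen, which joins Rbpj to co-repressors, had 143, 129 and 91.3 CPM against 258, 250 and 229 CPM (log2 1.02, SE 0.177, adjusted p = 0.00186). Maml2, a Mastermind co-activator, differed by 1.14 (SE 0.259, adjusted p = 0.0103), and the acetyltransferase genes Crebbp, Ep300 and Kat2b by 0.76, 0.61 and 0.67. Rbpj had 209, 236 and 204 CPM in ETP and 202, 178 and 223 CPM in DN3, with overlapping groups (log2 -0.11, adjusted p = 0.743). Zmiz1, a co-factor of Notch1, had 256, 244 and 98.9 CPM in ETP and 326, 312 and 325 CPM in DN3 (log2 0.69, SE 0.304, adjusted p = 0.204), and ETP replicate 3 alone was far below the others.

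These nuclear genes are long, with a median of 7885 bases against 3358 over all genes tested. Ncor1, Spen and Maml2 were called once the length trend was removed, with a median of 0.31, and the part of length was not tested. Leaving out a library left 2 (without DN3 replicate 1) to 5 members called, with 3 without DN3 replicate 2 and 4 without DN3 replicate 3. Crebbp was lost without DN3 replicate 1 or 2 (adjusted p = 0.0531 and 0.106), and Maml2 without DN3 replicate 1 (0.0516). With IgG 3 members were higher in DN3, beside 7.12% of all genes, with a median of 0.32.

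Most target genes of Notch1 showed no called stage difference under the block. Of 11 tested genes of 12 listed, only Notch3 was called, which is 9.09% against 11.6% of all genes, and the median log2 difference was 0.17. DESeq2 called 2 higher. With IgG 4 of 11 were higher in DN3, beside 7.12% of all genes, with a median of 0.41. Ptcra, which encodes the invariant chain of the pre-T-cell receptor (GRCm38 chr17:46755663-46763712, minus strand), had 2.28, 1.18 and 15.4 CPM in ETP and 83.8, 57.3 and 73.3 CPM in DN3. The DN3 libraries all lay above the ETP libraries, but ETP replicate 3 stood apart from the other ETP libraries, and the difference did not pass (log2 3.49, SE 1.02, adjusted p = 0.107). Without ETP replicate 3 the log2 difference was 5.38 (adjusted p = 3.41e-06), and DESeq2 (adjusted p = 0.0101) and a spread shared by 4 groups (0.0185) also called it. In the IgG libraries Ptcra had 33, 43 and 26.7 CPM in ETP and 228, 209 and 206 CPM in DN3 (log2 2.64, adjusted p = 7.12e-08).

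Dtx1, a ubiquitin ligase and a direct Notch target, had 0.956, 0.0653 and 8.65 CPM in ETP and 4.98, 13.5 and 15.8 CPM in DN3. The groups overlapped through ETP replicate 3, and the difference did not pass (log2 1.82, SE 1.19, adjusted p = 0.408). Without that library it was 4.48 (adjusted p = 0.0123), and in the IgG libraries 28.5, 26.4 and 25.3 CPM stood against 162, 192 and 162 CPM (log2 2.68, adjusted p = 1.47e-08). Il2ra, which encodes CD25, had 436, 283 and 1039 CPM in ETP and 546, 850 and 580 CPM in DN3 (log2 0.17, SE 0.528, adjusted p = 0.9). Its highest value of the 6 libraries was in ETP replicate 3, and without that library the difference was 0.88 (adjusted p = 0.0421). The IgG libraries held 1937 to 2649 CPM of Il2ra in ETP and 3206 to 3814 CPM in DN3 (log2 0.66, adjusted p = 0.0031). Hes1, a repressor of transcription, had 42, 29.1 and 60.8 CPM in ETP and 56.6, 45.8 and 33.8 CPM in DN3 (log2 0.05), with overlapping groups. Myc, the growth regulator, had 39.9, 90.7 and 96.9 CPM against 70.1, 70.2 and 65 CPM (log2 -0.15), and Nrarp, a feedback inhibitor of Notch, differed by -1.18 (SE 0.656, adjusted p = 0.291).

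The effect of the antibody on these targets was read within each stage, from the same libraries as the stage comparisons. In DN3, AntiNRR against IgG lowered 6 of the 11 targets, against 2.96% of all genes that were lower. Their log2 differences were -3.94 for Dtx1 (adjusted p = 0.00576), -2.43 for Il2ra (1.46e-05), -1.59 for Ptcra (5.61e-08), -0.99 for Myc (0.000253), -0.78 for Notch3 (2.66e-05) and -0.73 for Hes1 (0.0431). In ETP no target passed, with log2 differences of -3.01 for Dtx1, -2.41 for Ptcra and -1.91 for Il2ra and adjusted p of 0.919, 0.848 and 0.77. In ETP edgeR called no gene of 12568, with a lowest adjusted p of 0.0816, 687 genes at an unadjusted p under 0.05 and 28 genes (0.223%) called by DESeq2, whereas in DN3 it called 710 of 12658 (5.61%), 335 higher (2.65%) and 375 lower (2.96%), and DESeq2 called 7.38%. The DN3 count was 353 without IgG DN3 replicate 2, 351 without IgG DN3 replicate 3 and 130 with a spread shared by 4 groups.

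**Figure D2:**
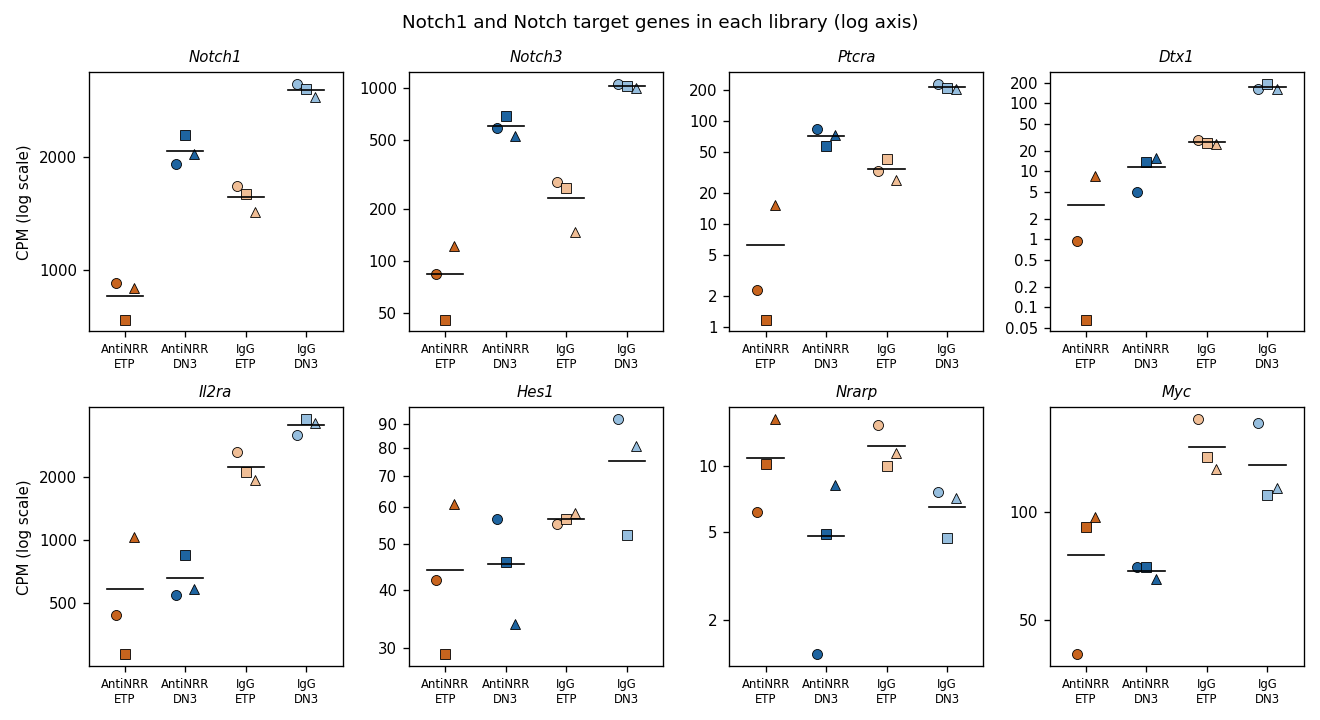
Level of Notch1 and 7 Notch target genes in each library, in CPM on a log axis, with groups, symbols and lines as in the plot of stage genes. Notch1 and Notch3 lie higher in DN3 than in ETP with either antibody, and the triangle of AntiNRR ETP replicate 3 is the highest of its group for Dtx1, Ptcra and Il2ra.

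Promoters of a target gene and of 2 genes with large stage differences are shown, because they hold the letters that Rbpj (TGGGAA) and E proteins (CAGCTG or CAGGTG) bind. E proteins drive Ptcra and Rag1 in thymocytes. The windows run from 250 bases before to 50 bases after the RefSeq start (GRCm38.p6), and capitals mark these motifs on either strand. Over all 27025 promoters of the same length, 25.5% held TGGGAA, 16.1% CAGCTG and 20% CAGGTG. The Ptcra window is chr17:46763663-46763962, that of Rag1 is chr2:101649483-101649782 and that of Cd44 is chr2:102901616-102901915, all on the minus strand.
Ptcra: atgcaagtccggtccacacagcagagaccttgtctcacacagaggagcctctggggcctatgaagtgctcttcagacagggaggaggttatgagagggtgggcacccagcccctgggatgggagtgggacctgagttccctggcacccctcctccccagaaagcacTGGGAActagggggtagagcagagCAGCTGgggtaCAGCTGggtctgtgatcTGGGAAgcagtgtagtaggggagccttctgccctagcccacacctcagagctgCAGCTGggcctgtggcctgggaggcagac
Rag1: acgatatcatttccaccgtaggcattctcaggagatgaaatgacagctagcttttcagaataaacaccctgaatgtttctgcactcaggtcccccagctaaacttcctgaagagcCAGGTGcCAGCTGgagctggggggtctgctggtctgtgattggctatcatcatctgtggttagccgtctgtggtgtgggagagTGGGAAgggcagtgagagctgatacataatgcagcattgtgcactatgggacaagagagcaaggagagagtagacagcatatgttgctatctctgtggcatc
Cd44: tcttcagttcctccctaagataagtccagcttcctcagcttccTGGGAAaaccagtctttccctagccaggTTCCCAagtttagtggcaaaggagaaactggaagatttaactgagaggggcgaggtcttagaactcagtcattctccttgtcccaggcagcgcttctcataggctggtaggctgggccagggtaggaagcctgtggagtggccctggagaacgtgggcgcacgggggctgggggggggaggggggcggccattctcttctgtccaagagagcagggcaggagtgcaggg
The Ptcra window held TGGGAA 2 times and E-boxes 3 times, Rag1 held 1 and 2, and Cd44 held TGGGAA 2 times and no E-box. The windows of Notch1, Notch3, Dtx1, Il2ra, Kit, Rag2 and Bcl11b held none of these letters, which says nothing of binding elsewhere. That of Nrarp held 1 E-box and no TGGGAA. The windows shown were picked for holding TGGGAA, so they do not show it to be more common here than over all promoters. A match of letters is a description of the sequence and not a site, and these genes did not move alike.

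Genes of receptor recombination differed in both directions. Rag1, the catalytic subunit that cuts receptor gene segments (GRCm38 chr2:101638282-101649501, minus strand), had 355, 153 and 377 CPM in ETP and 4273, 3507 and 3521 CPM in DN3, a 12.8-fold difference (log2 3.67, SE 0.333, adjusted p = 0.000346). Rag2, its partner, had 40.6, 17 and 55.3 CPM in ETP and 179, 151 and 127 CPM in DN3 (log2 2.01, SE 0.374, adjusted p = 0.01). Neither gene's groups overlapped, and ETP replicate 2 was the lowest library for both. Dclre1c, which encodes the hairpin-opening nuclease Artemis, and Xrcc6, a DNA end-binding subunit, differed by 0.93 and 0.56. Hmgb1 and Hmgb2, DNA-bending proteins that assist Rag cutting and are also abundant in dividing cells, were lower in DN3 (log2 -0.87, adjusted p = 0.00096, and -1.42, adjusted p = 0.00159). Hmgb2 had 388, 565 and 392 CPM in ETP and 138, 130 and 235 CPM in DN3. Dntt, which adds bases at the joins, had 4373, 4544 and 5405 CPM in ETP and 4883, 3957 and 4441 CPM in DN3 and did not pass (log2 -0.11).

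In all, 4 of 14 recombination genes were higher and 2 lower (42.9% called, against 11.6% of all genes). Dclre1c was lost without DN3 replicate 1 or 2 (adjusted p = 0.0813 and 0.104) and with the length trend removed (0.0712). Xrcc6 was lost without any 1 DN3 replicate (0.0773, 0.0956 and 0.0804) or without ETP replicate 2 (0.0541).

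Genes of the pre-T-cell receptor and its signalling moved in both directions, with 7 of 27 higher and 4 lower in DN3 (40.7% called) and a median log2 difference of 0.26. Cd3e, a signalling chain of the receptor complex, had 450, 188 and 387 CPM in ETP and 945, 990 and 887 CPM in DN3, a 2.75-fold difference (log2 1.46, SE 0.263, adjusted p = 0.00511). The lowest DN3 library held more Cd3e than the highest ETP library. Cd3d had 56.2, 11.5 and 31.5 CPM in ETP and 163, 176 and 171 CPM in DN3 (log2 2.36, SE 0.541, adjusted p = 0.0431). The kinase gene Lck, which phosphorylates the CD3 chains, had 521, 414 and 503 CPM in ETP and 790, 823 and 818 CPM in DN3 (log2 0.76, SE 0.145, adjusted p = 0.00357). Grap2, an adaptor, Themis, a regulator of selection, and Cd28, a co-stimulatory receptor, were also higher, by 1.06, 0.77 and 1.09.

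The lower members were Cd2, described above, Trat1, Cd5 and Fyn. Trat1 stabilises the receptor complex and differed by -0.81, Cd5 damps its signal and differed by -1.61, and Fyn is a Src-family kinase and differed by -0.65. The 3 last calls were fragile, since each was lost without any 1 DN3 replicate or without ETP replicate 3 (adjusted p of 0.0607 to 0.129 for Trat1, 0.0554 to 0.109 for Cd5 and 0.0923 to 0.143 for Fyn), and those of Cd5 and Fyn also without ETP replicate 1 (0.0742) and ETP replicate 2 (0.0864). Without DN3 replicate 1, 2 or 3 or ETP replicate 3 the count of lower members was 1. Cd3e was lost without ETP replicate 3 (adjusted p = 0.0604). Cd3g and Lat, chains and adaptors of the same complex, did not pass (log2 0.67 and 0.33), and Cd3g in ETP ranged from 201 to 561 CPM.

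Transcription factors of the T lineage divided between the stages, with 8 of 27 higher and 4 lower in DN3 (44.4% called). Bcl11b, the factor that seals commitment (GRCm38 chr12:107910403-108003602, minus strand), had 1007, 657 and 598 CPM in ETP and 1888, 2037 and 1884 CPM in DN3, a 2.57-fold difference (log2 1.36, SE 0.183, adjusted p = 0.000287). Lef1, a Wnt-responsive factor, had 72.2, 29.5 and 45.3 CPM in ETP and 138, 183 and 162 CPM in DN3 (log2 1.71, SE 0.27, adjusted p = 0.00157). Tcf12, which encodes the E protein HEB, had 392, 314 and 317 CPM in ETP and 701, 611 and 694 CPM in DN3 (log2 0.97, SE 0.151, adjusted p = 0.000781). No ETP library reached the DN3 range for these genes. The Ets-family genes Ets2, Spib and Ets1 differed by 1.68, 1.77 and 0.84, and Runx1 and Tcf4 by 0.59 and 0.55.

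On the ETP side, Id2, an inhibitor of E proteins, had 36.5, 10.8 and 38.4 CPM in ETP and 6.91, 7.37 and 6.85 CPM in DN3 (log2 -2.02, SE 0.446, adjusted p = 0.0088). Runx3 and Runx2 were lower in DN3 (log2 -1.17 and -1.02). Tox, a nuclear regulator of T and innate lymphoid development, differed by -0.63, and its call was lost without any 1 DN3 replicate or ETP replicate 1 or 2 (adjusted p = 0.109 to 0.147). The factors that Notch induces at entry did not pass. Tcf7 had 1226, 970 and 1005 CPM in ETP and 1319, 1300 and 1249 CPM in DN3 (log2 0.27, SE 0.143, adjusted p = 0.26). Gata3 had 362, 180 and 237 CPM in ETP and 250, 245 and 253 CPM in DN3 (log2 -0.06, adjusted p = 0.911), with the DN3 libraries inside the ETP range.

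Stem and progenitor genes were lower in DN3. Of 23 tested genes of 29 listed, 12 were lower and none was higher (52.2% called, against 5.87% of all genes that were lower), with a median log2 difference of -2.93. A gene needed enough counts in only 1 stage to be tested, so members tested through ETP alone could only be lower in DN3. The antibody comparison within DN3 could test 16 members and that within ETP 26. The share of lower members is therefore a description and not a test of the list. Cd44, a hyaluronan receptor (GRCm38 chr2:102811141-102901665, minus strand), was 37.6-fold lower in DN3 by the values given above (log2 -5.23, SE 0.381, adjusted p = 7.22e-06). Kit, the receptor of stem cell factor, had 255, 474 and 324 CPM in ETP and 180, 158 and 217 CPM in DN3, a 1.9-fold difference (log2 -0.92, SE 0.207, adjusted p = 0.00965) that did not pass without DN3 replicate 2 (0.0733). Kit RNA was thus present in every DN3 library. Lyl1, a basic helix-loop-helix factor of stem cells (GRCm38 chr8:84701457-84704715, plus strand), had 8.38, 14.7 and 17.4 CPM in ETP and no count in DN3, at least 201-fold (adjusted p = 0.000118). Nfe2, a factor of megakaryocyte and erythroid cells, had 81.7, 96.7 and 120 CPM in ETP and 27.5, 14.2 and 13.4 CPM in DN3 (log2 -2.43, SE 0.285, adjusted p = 0.000115).

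Hhex, a homeobox factor of early progenitors, had 29.1, 105 and 27.8 CPM in ETP and 3.96, 0.763 and 3.42 CPM in DN3 (log2 -4.28, adjusted p = 0.00945), and was lost without DN3 replicate 3 (0.0543). Mef2c, Mycn, Meis1, Sfpi1, Lyn and Btk were lower (log2 -2.93, -1.40, -3.38, -4.89, -0.87 and -4.77). Hlf had 5.66, 2.81 and 5.69 CPM in ETP and 1 count in DN3, a ratio of 206 with a counting interval from 36.5 to 8165. Cd34, a surface marker of progenitors, had 69.3, 376 and 101 CPM in ETP and no count in DN3, at least 2668-fold. ETP replicate 2 set its spread, and edgeR did not call it (adjusted p = 0.0958), whereas DESeq2 did (1.93e-14), as did edgeR without ETP replicate 2 (4.21e-08). Flt3, a cytokine receptor of multipotent progenitors, had 12.7, 145 and 26.3 CPM in ETP and 0, 0 and 1.22 CPM in DN3 (adjusted p = 0.0902). The count of lower members was 8 without DN3 replicate 1 or 2, 17 without ETP replicate 1 and 17 with DESeq2. With IgG 17 of 25 were lower, beside 7.6% of all genes, with a median of -2.63. Fewer cells with progenitor RNA and less of it per cell cannot be told apart in sorted bulk samples.

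Cytokine receptor and Jak-Stat genes gave 7 lower and 2 higher of 30 in DN3 (30% called), with a median log2 difference of -0.25. The antibody comparison within DN3 could test 26 members and that within ETP 30. Members tested through ETP alone could only be lower in DN3, so the direction of these counts is a description. Il7r, the receptor for the thymic survival factor interleukin 7 (GRCm38 chr15:9505788-9530176, minus strand), had 167, 168 and 168 CPM in ETP and 90.7, 73.1 and 86.6 CPM in DN3 (log2 -1.01, SE 0.158, adjusted p = 0.00089). The IgG libraries held 178 to 208 CPM in ETP and 153 to 174 CPM in DN3, a difference that did not pass (log2 -0.26, adjusted p = 0.193). The difference between the antibodies had a log2 of -0.75 (SE 0.195, unadjusted p = 0.000762), which did not pass over all genes (adjusted p = 0.887). Il4ra, the interleukin 4 receptor chain, had 157, 184 and 126 CPM in ETP and 17.3, 29.6 and 11.3 CPM in DN3, an 8.05-fold difference (log2 -3.01, SE 0.307, adjusted p = 0.000106). Il2rb, Il1rl1, Il18r1, the signalling inhibitor gene Socs2 and Kit were the other lower members. The higher members were Socs3, an inhibitor of cytokine signalling (log2 1.47, SE 0.267, adjusted p = 0.00257), and Ifnar1, whose call was lost without any 1 DN3 replicate or ETP replicate 2 or 3 (adjusted p = 0.0647 to 0.14).

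Homing and adhesion genes gave 1 higher and 4 lower of 21 (23.8% called). The antibody comparison within DN3 could test 18 members and that within ETP 21, so here too the direction is a description. Cdh1, which encodes E-cadherin, had 48.2, 35.1 and 48.3 CPM in ETP and 143, 168 and 125 CPM in DN3 (log2 1.73, SE 0.194, adjusted p = 8.68e-05). Itgb7, an integrin chain, had 57.1, 28.3 and 10.4 CPM in ETP and 2.25, 5 and 3.88 CPM in DN3 (log2 -3.11, SE 0.563, adjusted p = 0.00315). Itgb2, another integrin chain, and the chemokine receptor gene Ccr7 were also lower (log2 -0.97 and -3.88). Their calls depended on single libraries. Itgb2 was lost without any 1 DN3 replicate or ETP replicate 1 (adjusted p = 0.072 to 0.141) and Ccr7 without DN3 replicate 1 or 2 or ETP replicate 1 (0.0852, 0.113 and 0.207). Ccr9, the receptor for the thymic chemokine CCL25, had 487, 177 and 240 CPM in ETP and 689, 566 and 599 CPM in DN3. It did not pass with all libraries (log2 1.04, adjusted p = 0.0949) and passed without ETP replicate 1 (log2 1.57, adjusted p = 0.000211).

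Of 16 death and survival genes tested, 2 were higher and 3 lower in DN3 (31.2% called), and the median log2 difference was -0.61. Bmf, a death-promoting BH3-only protein, had 30.5, 28.5 and 53.1 CPM in ETP and 215, 243 and 177 CPM in DN3, a 5.66-fold difference (log2 2.5, SE 0.234, adjusted p = 1.61e-05). Bcl2, which opposes cell death, had 560, 471 and 514 CPM in ETP and 253, 322 and 300 CPM in DN3 (log2 -0.82, SE 0.152, adjusted p = 0.00295). The groups of neither gene overlapped, and both calls held under every alternative. Bcl2l11, which encodes the BH3-only protein Bim, was higher by 0.84, and Casp8, an initiator caspase, and Bcl2l1, which encodes Bcl-xL, were lower (log2 -0.71 and -0.99). Bcl2l11 was lost with the length trend removed (adjusted p = 0.0909), without any 1 DN3 replicate or without ETP replicate 2 or 3 (0.0545 to 0.246). Casp8 was lost without DN3 replicate 2 or 3 (0.0722 and 0.062) and Bcl2l1 without any 1 DN3 replicate or ETP replicate 3 (0.0518 to 0.101). Mcl1 did not pass (log2 0.42, adjusted p = 0.139).

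Cell-cycle genes were lower in DN3 for replication, while the mitosis genes varied within each stage. Of 37 replication genes, 13 were lower and none higher (35.1% called), with a median log2 difference of -0.97. Gins2, a subunit of the replicative helicase, had 35.9, 77.6 and 55.2 CPM in ETP and 8.19, 11.2 and 16.6 CPM in DN3 (log2 -2.23, SE 0.341, adjusted p = 0.000691). Mcm5, of the same helicase, had 271, 507 and 326 CPM in ETP and 106, 126 and 186 CPM in DN3 (log2 -1.4, SE 0.252, adjusted p = 0.004). Slbp, which binds histone messages, had 85.6, 114 and 125 CPM in ETP and 40.4, 49.1 and 61.4 CPM in DN3 (log2 -1.1, SE 0.212, adjusted p = 0.00357). Their sums show the spread: the list added up to 4167, 7853 and 4949 CPM in ETP and 2783, 3210 and 4148 CPM in DN3. The count of lower members was 4 without DN3 replicate 1 or 2, 6 without ETP replicate 2, 20 without ETP replicate 1 and 20 with DESeq2.

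Of 31 mitosis genes, 3 were lower in DN3, Ccnb2, Cenpa and Ndc80 (9.68%, against 5.87% of all genes that were lower). None was higher, 26 members lay below 0 and the median log2 difference was -0.67. The list summed to 1286, 2845 and 1030 CPM in ETP and 597, 933 and 2260 CPM in DN3, so that ETP replicate 2 and DN3 replicate 3 were the highest libraries of their groups. Mki67, a marker of dividing cells, had 154, 248 and 82.3 CPM in ETP and 104, 236 and 559 CPM in DN3 (log2 0.89, SE 0.784, adjusted p = 0.591). Without DN3 replicate 3, 9 mitosis genes were lower, and without DN3 replicate 2 only 1. Cenpa was lost without DN3 replicate 2 (adjusted p = 0.0547) and Ndc80 without DN3 replicate 1 or 2 or ETP replicate 2 (0.146, 0.161 and 0.222). With IgG 16 of 31 were lower, beside 7.6% of all genes, but edgeR called no gene whose stage difference changed with the antibody.

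Ribosomal protein genes were lower in DN3 almost as a block, with 60 of 82 tested lower and none higher (73.2% called) and a median log2 difference of -0.72. Rpl41 had 435, 459 and 434 CPM in ETP and 189, 137 and 177 CPM in DN3 (log2 -1.4, SE 0.159, adjusted p = 8.8e-05). Rplp1, of the ribosomal stalk, had 1105, 1192 and 1407 CPM in ETP and 650, 493 and 507 CPM in DN3 (log2 -1.17, SE 0.159, adjusted p = 0.000331). The list summed to 60637, 66956 and 75365 CPM in ETP and 46606, 40039 and 39523 CPM in DN3, with no overlap. These transcripts are short, with a median length of 1107 bases against 3358 over all genes tested. Once the length trend was removed, 28 members were lower and none higher and the median was -0.34, and the part of length was not tested. Without DN3 replicate 2 the count was 27, and without DN3 replicate 3 it was 34. Ribosomal protein genes have many processed pseudogenes, and how the authors' counting treated reads that match several places is not given in the sources used here, so their counts are uncertain.

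Genes that Myc is known to drive showed little stage difference, with 2 of 51 higher and 5 lower (13.7% called, against 11.6% of all genes) and a median of -0.20. The higher genes were Ddx21 and Ncl, which act in ribosome assembly in the nucleolus, and the lower were Cdk4, Phb2, Impdh2, Eif5a and Nop16. Cdk4, which drives entry into the cell cycle, had 167, 201 and 201 CPM in ETP and 114, 99.3 and 117 CPM in DN3 (log2 -0.78, SE 0.157, adjusted p = 0.0048). With the length trend removed, no member was higher, and only Cdk4 and Phb2 were lower. Leaving out a library gave 0 to 4 higher members, with 0 without DN3 replicate 2 or 3 or ETP replicate 1, and 1 lower without DN3 replicate 1 to 10 lower without ETP replicate 1. In DN3 the antibody itself lowered 34 of the 51 against IgG, beside 2.96% of all genes, while the stage difference in the IgG libraries called 3 higher and 3 lower.

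Glycolysis genes gave 2 higher and 5 lower of 20 (35% called). Ldhb, the lactate dehydrogenase subunit of oxidative tissues, had 39.7, 37 and 44.7 CPM in ETP and 118, 114 and 102 CPM in DN3 (log2 1.46, SE 0.185, adjusted p = 0.000187). Ldha, the subunit of glycolytic cells, had 231, 340 and 376 CPM in ETP and 174, 183 and 188 CPM in DN3 (log2 -0.8, SE 0.178, adjusted p = 0.00915). Neither pair of groups overlapped, and the subunits differed in opposite directions. Aldoa, Pgk1, Pgam1 and Eno1 were lower (log2 -0.85, -0.70, -0.62 and -0.55), and Hk1, which starts the pathway, was higher by 0.63. With the length trend removed, Ldhb, Aldoa and Ldha were called. Ldha was lost without DN3 replicate 1 or 2 (adjusted p = 0.0516 and 0.0564), Pgk1 without those or ETP replicate 2 (0.0624 to 0.138), Pgam1 without each library but ETP replicate 3 (0.0561 to 0.136) and Hk1 without each but ETP replicate 2 (0.0927 to 0.169).

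Neither the stress nor the interferon list was called more often than all genes, of which 11.6% were called in either direction and 5.75% higher. Of 16 immediate early genes, only Btg2 was called, higher by 0.97 (6.25%), and it was lost without DN3 replicate 1 or 2 (adjusted p = 0.0513 and 0.057). Of 27 interferon response genes, Zbp1, Parp14 and Stat2 were higher, by 1.44, 0.78 and 0.64 (11.1%), and none of the 3 was called without DN3 replicate 2 (adjusted p = 0.0745, 0.116 and 0.162). Stat2 was lost without each library in turn (0.0508 to 0.162). Zbp1 and Bst2 were the members called with the length trend removed.

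**Figure D3:**
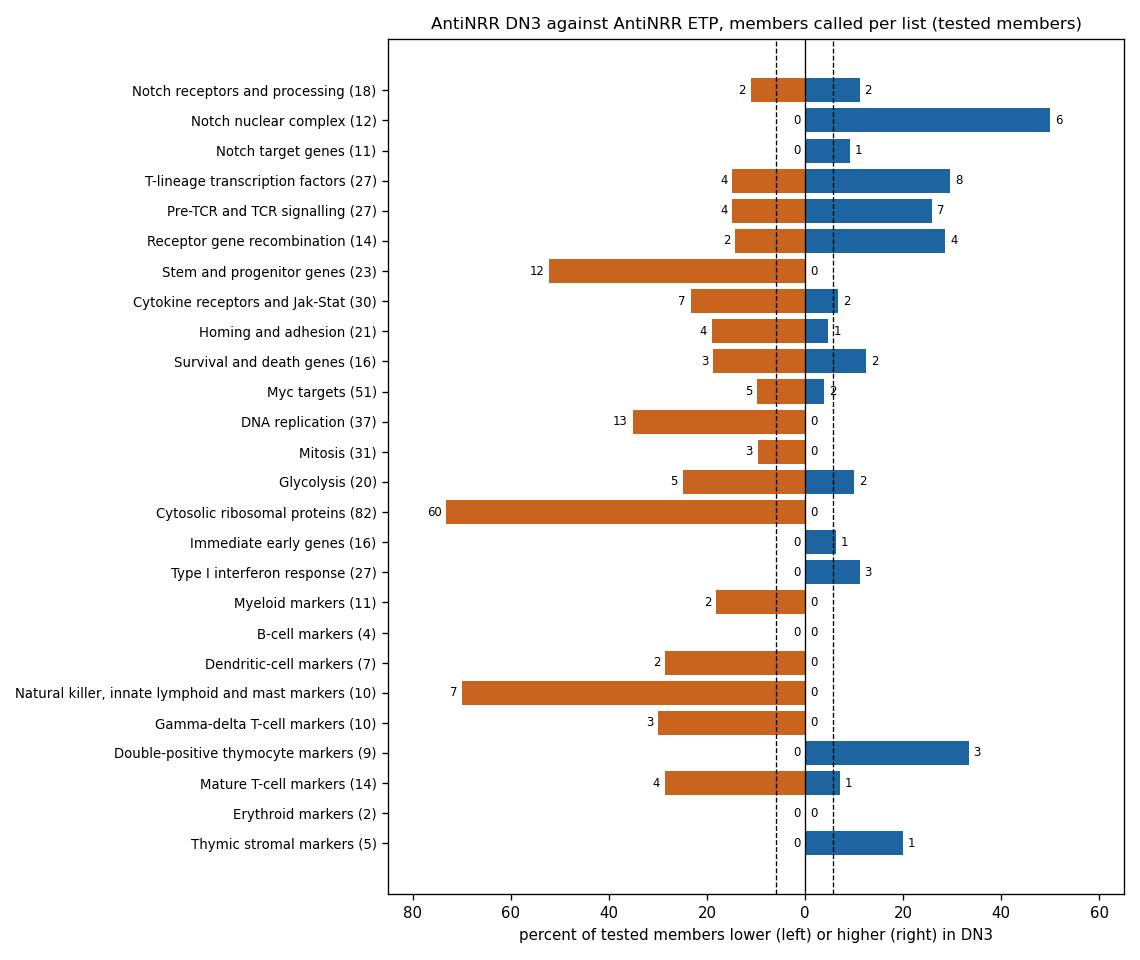
Share of tested members of each of 26 gene lists called lower (orange, to the left) or higher (blue, to the right) in DN3 than in ETP under Notch1 block, in percent, with the counts beside the bars. Dashed lines are the shares over all genes, 5.87% lower and 5.75% higher. Ribosomal protein genes lie farthest to the left, with 60 members lower.

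**Figure D4:**
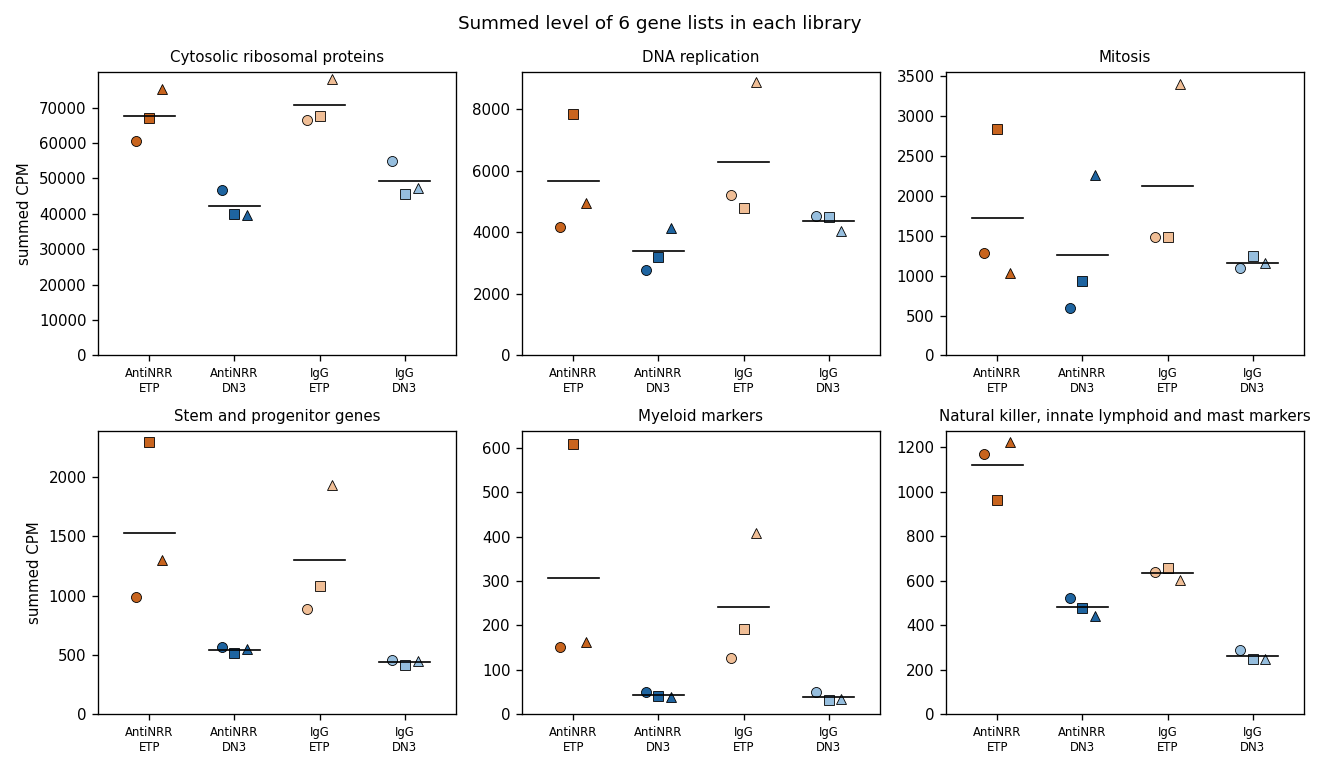
Summed level of 6 gene lists in each library, in CPM on axes that start at 0, with groups, symbols and lines as in the plot of stage genes. The 3 AntiNRR ETP libraries hold more ribosomal protein and progenitor RNA than the 3 AntiNRR DN3 libraries, and AntiNRR ETP replicate 2 is the highest of its group for progenitor, myeloid and mitosis genes.

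Markers of other cell types were measured beside these results. Their counts stand beside 5.75% of all genes called higher and 5.87% called lower in DN3. Innate lymphoid, natural killer and mast cell genes were lower in DN3, 7 of 10 tested (70%) among 22 listed. The list summed to 962 to 1222 CPM in ETP and 442 to 521 CPM in DN3. Cpa3, a mast cell protease also found in progenitors, made up most of this sum in ETP but not in DN3. It had 590, 680 and 767 CPM in ETP and 155, 118 and 104 CPM in DN3 (log2 -2.43, SE 0.181, adjusted p = 4.39e-06). The other genes called lower were Il1rl1, Il2rb, Zbtb16, Id2, Nkg7 and Klrd1. Of the 12 members too low to test, Ncr1, Ms4a2, Fcer1a and Tpsb2 were at 0 in all 6 libraries, and the others reached at most 9.67 CPM in a library. Members tested through ETP alone could only be lower in DN3, here and among the myeloid, dendritic-cell, gamma-delta and mature T-cell markers. Zbtb16, the innate lymphocyte factor PLZF, had 17.3, 17.2 and 2.9 CPM in ETP and at most 0.593 CPM in DN3. Myeloid markers summed to 152, 609 and 162 CPM in ETP and 49.5, 41.8 and 39.2 CPM in DN3. Of 11 tested genes 2 were lower (18.2%), Cebpb and Irf8. Mpo, the granule enzyme myeloperoxidase, had 63.1, 461 and 79.9 CPM in ETP and no count in DN3, at least 2941-fold. It was not called by edgeR (adjusted p = 0.146) but was by DESeq2 (8.33e-12) and without ETP replicate 2 (4.54e-08). Elane, S100a8, Cd14 and Ms4a3 were at 0 in all 6 libraries. Cebpb and Irf8 were both lost without DN3 replicate 1 or 2 or ETP replicate 1 and with the length trend removed, at adjusted p of up to 0.178, Cebpb also without DN3 replicate 3 (0.147) or ETP replicate 3 (0.0652) and Irf8 also without ETP replicate 2 (0.373).

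Dendritic-cell genes summed to 36.3 to 65.1 CPM in ETP and 19.4 to 22 CPM in DN3, with Batf3 and Clec9a at 0 in all 6 libraries. Of 7 tested, Itgax and Irf8 were lower (28.6%). Of B-cell genes 4 of 14 could be tested and none was called, and Ms4a1, Pax5 and Ebf1 were at 0 throughout. Gamma-delta T-cell genes gave 3 lower of 10 (30%), Zbtb16, Cxcr6 and Etv5. The call of Etv5 was lost without DN3 replicate 1 or 2 (adjusted p = 0.105 and 0.135). Double-positive thymocyte genes gave 3 higher of 9 (33.3%, beside 5.75% of all genes), Arpp21, Themis and Aqp11. Aqp11 was lost without DN3 replicate 1 or 2 (adjusted p = 0.065 and 0.0905) and with the length trend removed (0.0783). Arpp21 had 659, 441 and 635 CPM in ETP and 1540, 1818 and 1543 CPM in DN3 (log2 1.5, SE 0.17, adjusted p = 8.8e-05), but Cd4, Cd8a and Cd8b1 did not pass (log2 -0.88, -0.29 and -0.58). Mature T-cell genes gave 1 higher, Ctla4 (log2 2.18), and 4 lower of 14, among them Il7r, Cd52 and Ccr7 (35.7% called, beside 11.6% of all genes). Epcam, an epithelial adhesion gene, was the called member of 5 stromal genes, higher in DN3 at 87.7, 74.3 and 68.9 CPM against 30, 22.3 and 14.4 CPM (log2 1.79, adjusted p = 0.000654), and no erythroid gene was called. The part of other cells in the stage differences was not tested.

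The same stage comparison in the IgG libraries called 1873 of 12720 genes (14.7%), 906 higher (7.12%) and 967 lower (7.6%) in DN3, and DESeq2 called 17.7%. With library totals in place of TMM the split was 1263 higher and 728 lower, and without IgG DN3 replicate 2 or 3 the count was 993 or 941. These libraries are not shared with the AntiNRR comparison. Of 12221 genes tested in both, 953 were called in both and all 953 in the same direction, 464 higher and 489 lower. This is 65.9% of the genes called under the block and 51.7% of those called with IgG. The 493 genes called under the block only had a median size of 0.86 there and 0.38 with IgG, and 95.5% had the same sign in both. The 890 genes called with IgG only had 0.50 under the block and 0.84 with IgG, and 95.1% had the same sign. Over all 12221 genes 72.8% had the same sign, and Pearson's r of the log2 differences was 0.67, a description across genes that are not independent.

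Whether the stage difference itself changed with the block was tested for each gene over the 12 antibody libraries. edgeR called none of 13603 genes, with a lowest adjusted p of 0.887, 743 genes (5.46%) had an unadjusted p under 0.05, and DESeq2 called 5 (0.0368%). The calls made in a single antibody group are therefore not shown to differ between the groups. The lowest p belonged to Col15a1, a collagen chain gene, with 1.18, 0.718 and 0.711 CPM in ETP and 17.8, 28.8 and 34.3 CPM in DN3 under the block and 5.07, 6.7 and 2.95 CPM in ETP and 25.9, 27.3 and 23.8 CPM in DN3 with IgG (log2 of the change 2.56, SE 0.566, unadjusted p = 0.000139). Cpa3 had 262 to 380 CPM in ETP and 14.7 to 29.5 CPM in DN3 with IgG, a larger stage difference than under the block (log2 of the change 1.39, unadjusted p = 0.000303, DESeq2 adjusted p = 0.0196). Tes, a focal adhesion gene, had a stage difference of -1.95 under the block and -3.06 with IgG (change 1.10, unadjusted p = 0.000351). For Notch1, Notch3, Rag1 and Bcl11b the change was 0.34, 0.70, 0.87 and 0.63, with 95% intervals of -0.03 to 0.72, -0.35 to 1.74, -0.12 to 1.86 and 0.12 to 1.14 and no adjusted p under 0.9.

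**Figure D5:**
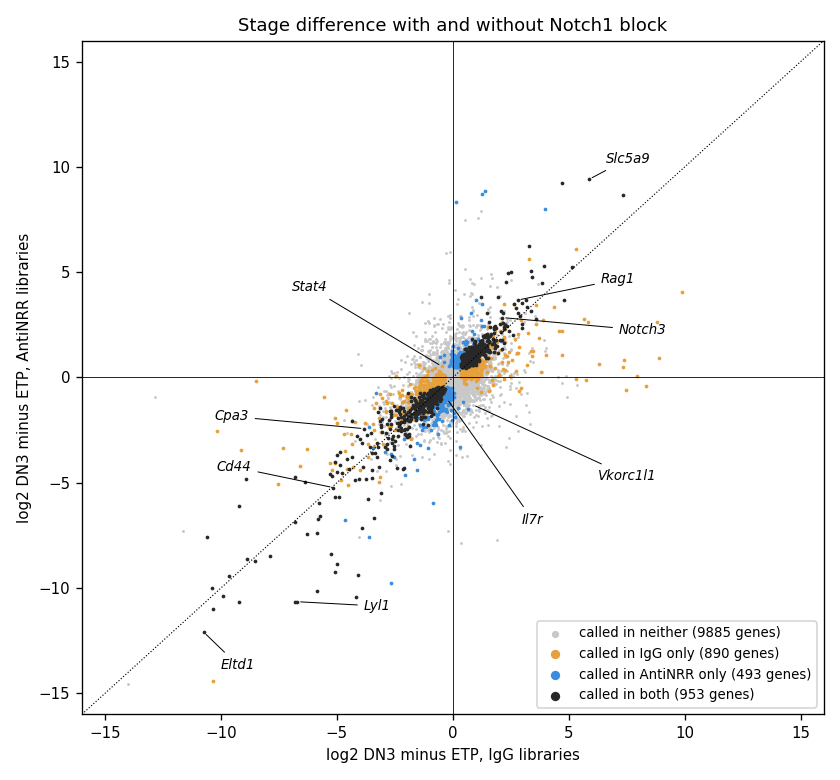
Stage difference of each of 12221 genes in the IgG libraries (horizontal axis) and under Notch1 block (vertical axis), both as log2 DN3 minus ETP. Colours mark the 953 genes called in both, the 493 called under the block only, the 890 called with IgG only and the 9885 called in neither, and all 953 genes called in both lie in the quadrants of equal sign.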

How the data were processed

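RNA-seq libraries of sorted mouse thymocytes were grouped by their titles. The deposited values are estimated counts per gene symbol (23284 genes), made by the authors, and their totals differ between libraries as unscaled counts do. The submitters' processing notes name TopHat2 2.0.9 and Bowtie2 2.1.0.0, Cuffdiff 2.1.1 and Cufflinks, FastQC 0.10.0 and build mm10, with no role or order. Annotation, strand use and the treatment of multiply mapped reads are not given in the sources used here, so reads of genes with overlapping exons (for example Lyl1 and Nfix, Cdk4 and Tspan31, Cd180 and Mast4) cannot be told apart. Between 0.649% and 0.863% of a library's values lay further than 0.01 from a whole number, and all were rounded.

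Genes were filtered by filterByExpr (minimum count 10, minimum total 15) and scaled by TMM. The quasi-likelihood test of edgeR 4.0.16 in R 4.3.3 used the 2 groups of each comparison, with group as the only term, a prior count of 0.125 and Benjamini-Hochberg adjustment at 0.05, and the interaction used all 12 antibody libraries. CPM come from 1 TMM scaling of these 12, and SE is the log2 difference over the root of F. DESeq2 1.42.0, other scalings and filters, a replicate block, a spread shared by 4 groups and left-out libraries were alternatives. Ratios against 1 to 3 counts carry a 95% exact counting interval, and folds against 0 use 3 counts over the group. Both cover counting error only. Lengths are those of the longest GENCODE M21 transcript (98.7% of tested genes), and promoters are from RefSeq. The fit was tested on simulated data. There edgeR recovered 44% of 109 genes changed by a log2 of 1 and 87.9% of 91 genes changed by 2. A gene that did not pass can therefore still differ.

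The genes named were 15 Notch and stage genes, the 12 largest called differences in each direction (groups not overlapping, mean CPM 5 or more), the 4 called members of lowest p in each direction and the 2 most abundant uncalled members of each list, and the 10 lowest p of the interaction. Other called list members are named to complete a count. A few list members that these rules select are counted but not reported here by name. Cd3d, Lef1, Rbpj, Flt3, Cd8a and Cd8b1, given with values outside this rule, were chosen after their values were seen. The comparison and the lists were chosen with earlier results of these data known.

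Depth per library was 9456818 to 18745922 counts over the 12 libraries. The gene Rn45s, of the ribosomal RNA precursor, took 7.41% to 11% of the counts in AntiNRR ETP and 4.77% to 6.8% in AntiNRR DN3.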

Additional observations from a re-analysis of the deposited data

Results flagged for a closer look

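For 2 genes every AntiNRR library pair moved one way between the stages and every IgG library pair the other. Both were among the 10 genes of lowest p in the interaction, a rank that favours opposite directions. Over all genes tested, 30.9% had AntiNRR stage groups without overlap, and opposite directions were not counted over all genes. No difference between the antibodies passed the adjusted test of edgeR. Stat4, a transcription factor downstream of cytokine receptors, had 115, 94.4 and 85.2 CPM in AntiNRR ETP and 159, 142 and 123 CPM in AntiNRR DN3 (log2 0.53, edgeR adjusted p = 0.0616), but 103, 121 and 91.1 CPM in IgG ETP and 77.4, 72.9 and 76.4 CPM in IgG DN3 (log2 -0.48, adjusted p = 0.0445). The change between antibodies was 1.00 on the log2 scale (edgeR interaction, unadjusted p = 0.000195, adjusted p = 0.887). Its stage difference under the block was called by DESeq2 (adjusted p = 0.0486), with a spread shared by the 4 groups (0.0276) and without ETP replicate 1 (0.0279). Vkorc1l1, an enzyme of the vitamin K cycle, had 17.3, 15.9 and 16.5 CPM in AntiNRR ETP and 7.17, 4.83 and 8.29 CPM in AntiNRR DN3 (log2 -1.29, adjusted p = 0.0597), but 7.3, 10.3 and 11.7 CPM in IgG ETP and 16.1, 18.5 and 18.2 CPM in IgG DN3 (log2 0.85, adjusted p = 0.111). The change was -2.14 (edgeR interaction, unadjusted p = 0.000414, adjusted p = 0.887). DESeq2 and the shared spread called its stage difference under the block (adjusted p = 0.0277 and 0.0201).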

How the results depend on the processing

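Of 114 named genes called under the block, 66 kept their call under every alternative, 48 lost it under at least 1 and none reversed. DESeq2 and its size factors lost 0, the replicate block 13, the length trend 21 and a left-out library 13 to 43. The stage count under the block was 549 to 1661 on leaving out a library, 1484 with DESeq2 size factors, 1496 with no TMM factor, 1467 without Rn45s and Malat1, 1625 with no filter, 1977 with a shared spread and 1205 with the replicate block (621 higher, 584 lower). That block also called Ptcra (adjusted p = 0.0251) and Ccr9 (0.00311) and did not call Hhex (0.065). Same-numbered libraries did not deviate together (correlations of -0.05 to 0.012 between the stages and -0.067 to 0.08 between the antibodies), and no group's libraries all correlated best with their own number, so the numbers were not taken as pairs. With the length trend removed, 451 genes were higher. The IgG stage count was 941 to 1883 on leaving out a library, and its split was 1263 higher to 728 lower with no TMM factor. A 2-fold minimum left 701 and 779 genes. The interaction called 5 genes with DESeq2 and 0 to 3 without a library. The antibody effect in ETP called 28 with DESeq2, 2 with no TMM factor, 8 with no filter, 17 with a shared spread and 0 to 5 without a library, and that in DN3 130 with a shared spread and as few as 351 without a library (at most 677). The causes were not tested.

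Of 61 named genes that were not called, 16 changed sign. The replicate block did so for Gata3 (log2 0.00) and Jund (0.01), and removing the length trend for Hdac1 (0.12), Dntt (0.05), Jund (0.22) and Sox4 (-0.04). On leaving out a library the log2 difference ran from -0.20 to 0.36 for Hes1, -0.18 to 0.88 for Il2ra, -0.45 to 0.07 for Myc, -0.28 to 0.26 for Gata3, -0.39 to 0.00 for Notch2, -0.13 to 0.06 for Hdac1, -0.19 to 0.22 for Jund, -0.26 to 0.23 for Jun, -0.14 to 0.48 for Ly6d, -0.19 to 0.50 for Gzma, -0.12 to 0.31 for Il17rb, -0.01 to 0.16 for Sox4, -0.19 to 0.73 for Sox13, -0.10 to 0.04 for Pecam1 and -0.13 to 0.57 for Psmb11. Depth limits genes near the filter, and 6 of 29 progenitor genes were too low to test.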

Other observations

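Sap25, a co-repressor component, had no count in the AntiNRR ETP libraries and 2.62, 1.78 and 0.38 CPM in AntiNRR DN3, at least 26.2-fold higher by 75 counts, and was too low to be tested for the stage difference. In the IgG libraries it had 4.92, 10.2 and 3.11 CPM in ETP and 1.1, 2.73 and 5.44 CPM in DN3. Its change between the antibodies had an unadjusted p of 0.000323 with edgeR (adjusted p = 0.887) and an adjusted p of 0.0318 with DESeq2.

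Malat1, a nuclear noncoding RNA, took 0.826% ± 0.221 (SD, n = 3) of the counts in AntiNRR ETP and 1.25% ± 0.0806 (SD, n = 3) in AntiNRR DN3. The median level of the shortest of 5 length groups of genes, relative to the mean of the 12 antibody libraries on the log2 scale, was 0.13, 0.17 and 0.24 in the AntiNRR ETP libraries and -0.10, -0.22 and -0.18 in the AntiNRR DN3 libraries. In the longest group it was -0.04, -0.07 and -0.21 against 0.14, 0.16 and 0.16. In the IgG libraries it was 0.17, 0.16 and 0.26 in ETP and 0.03, -0.10 and -0.10 in DN3 for the shortest group.

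Timm8a1, a mitochondrial import gene, had 22.6, 31.8 and 33.3 CPM in AntiNRR ETP and 15.4, 9.74 and 14.3 CPM in AntiNRR DN3 (log2 -1.15, edgeR adjusted p = 0.0352), and 27.2, 20.1 and 39.1 CPM in IgG ETP and 37, 41.5 and 39 CPM in IgG DN3 (log2 0.44). The stage call under the block was lost under 7 of 15 alternatives, among them the length trend (adjusted p = 0.128), any 1 left-out DN3 replicate (0.0697 to 0.16) and ETP replicate 2 or 3 left out (0.0852 and 0.0969). Its change between the antibodies was -1.59 (unadjusted p = 0.000614). Tpcn1, an ion channel gene of endosomes and lysosomes, had a change of 1.12 (unadjusted p = 0.000577), and Taf1d, a subunit of the RNA polymerase I machinery, a change of -0.88 (unadjusted p = 0.000713). No change passed over all genes with edgeR (adjusted p = 0.887 for each).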
